A study of Mus musculus and Rattus norvegicus with 18 samples.

Results

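One gene can hold several stretches that ribosomes could read as codons, each running from a start codon to a stop codon. The frames described here are those that are not the longest of their gene and that overlap the span of the longest frame or begin beyond its last position. They are called secondary frames below, and frames that end before the longest frame begins are left out. The choice used the positions and codon numbers of the frames, not their footprints. It gave 4354 secondary frames of 3297 genes, which is 16.5% of the 26398 frames of 17866 genes in the table. The counts come from whole hearts of mice with a conditional Mettl1 knockout (cKO) and of control mice (Ctrl), all of the C57BL/6 strain and aged 4 weeks, with 2 Ribo-seq and 2 RNA-seq libraries per genotype. Mettl1 catalyses the addition of N7-methylguanosine to certain tRNAs. The Cre driver, the control genotype in full and whether libraries came from separate animals are not given in the sources used here, so p-values cover only the spread between these libraries, which may be technical.

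A ribosome usually scans from the end of the mRNA that carries the cap and begins at an AUG, and codons that differ from AUG by 1 base, called near-cognate, are used less often. A frame that overlaps the start of the main protein frame in another phase shares bases with it but encodes a different peptide. A frame beyond the main stop codon can be reached by reinitiation, by readthrough or on another transcript, and a frame with the same start and another end is often the product of alternative splicing. Ribo-seq sequences the RNA fragments covered by ribosomes, called footprints, and so records where ribosomes sat on each of these frames.

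No secondary frame ended at the last position of its longest frame. Sorted by position, 1280 shared the start of the longest frame and ended elsewhere, 1033 began before it and ended inside it, 19 spanned it, 724 lay inside it, 228 began inside it and ended beyond, and 1070 began beyond its end. The frames that shared a start had a median of 276.5 codons, against 46 codons for frames that overlapped the start and 46 codons for frames beyond the end. The median over all secondary frames was 61 codons, and 1861 had at most 50 codons. In 234 overlapping pairs of secondary and longest frame, both frames were unbroken by introns, so that their phase could be read from the positions. All 234 pairs were out of phase, 125 shifted by 1 base and 109 shifted by 2 bases. Overlapping unbroken frames in the same phase would run to the same stop codon. As no secondary frame shared the last position of its longest frame, the lack of pairs in phase is not a separate result. Frames beyond the end began between 1 and 270305 bases after the longest frame, with a median of 205.5 bases. At the edge of the choice, 14 secondary frames had as many codons as the longest frame, such as Tpm1 with 284 codons in both, and the Pln frame of 75 codons fell 1 codon short of the longest frame of 76 codons.

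The start codon could be read for 254 secondary frames, those whose first position lies in a RefSeq window around a gene start (250 bases before to 50 after, GRCm38.p6). All 83 that shared the start of the longest frame began with ATG. Of the 171 with a start of their own, 95 began with ATG, 44 with CTG, 19 with GTG and 13 with TTG, so 44.44% were near-cognate. Near-cognate starts made up 0.36% of 1392 longest frames and 32.7% of 679 frames wholly upstream that could be read in the same windows. A purine 3 bases before the start codon, which favours initiation, stood before 78.9% of the 71 near-cognate starts and 44.2% of the 95 ATG starts of secondary frames, against 87.4% of 1368 ATG starts of longest frames. A G directly after the start codon followed 63.4% of the near-cognate starts and 38 of the 95 ATG starts of secondary frames, against 68.1% of the ATG starts of longest frames. The sources used here do not say by which rules the authors called frames, so these shares describe the table and not how often ribosomes begin at each codon.

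**Figure D1:**
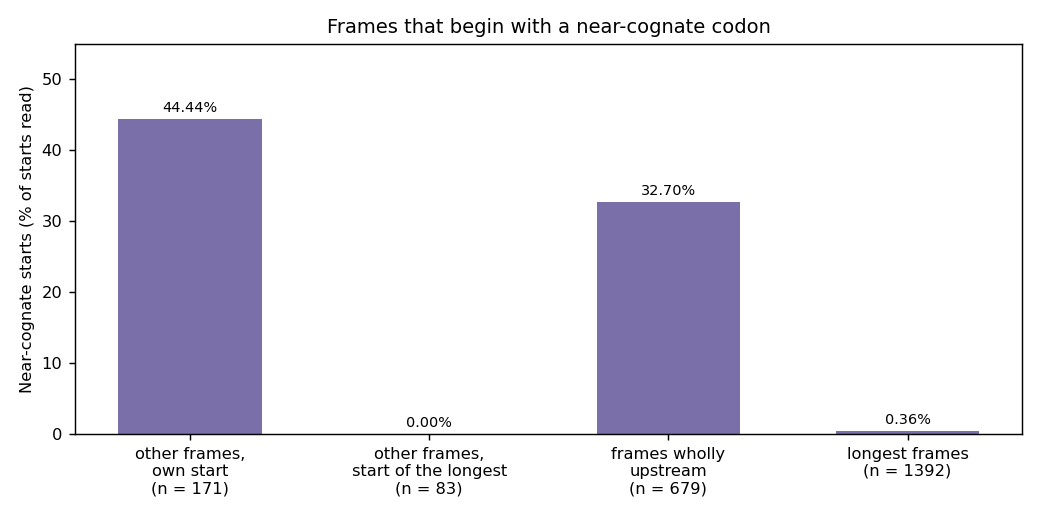
Share of starts that were near-cognate codons (y axis, percent of starts read) in 4 sets of frames (x axis, with the number of starts read). Secondary frames with their own start reached 44.44%, frames wholly upstream 32.7%, and both the longest frames and the secondary frames that share their start lay below 1%.

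The starts of 11 such frames are given with up to 12 bases before them, from RefSeq and GRCm38.p6, with the start codon in capitals. They were chosen because the frames lie in genes of muscle and mitochondrial metabolism or are described below with their values. The first 4 lie at the start of genes of energy metabolism.
Ckmt2, 25 codons, chr13:91876836-91876863, minus strand: acgcagcaggatCTGgatacgacagact
Ndufa8, 23 codons, chr2:36049289-36049313, minus strand: gccaaaggggacTTGaaggagacgg
Acadvl, 26 codons, chr11:70015379-70015398, minus strand: gacacacaacctTTGggcag
Ogdh, 19 codons, chr11:6291661-6291690, plus strand: cgcttcactcggGTGgagctgaacgggaga
Uqcr11, 21 codons, chr10:80406787-80406816, minus strand: atacgtctgcacATGcgtagtgctccaggg
Mrpl39, 91 codons, chr16:84735348-84735377, minus strand: ggagaggcgcgcATGcgcccccgcgtggct
Ldb3, 22 codons, chr14:34588610-34588639, minus strand: gctctgcacagcCTGgccaggcagcaagga
Nrap, 49 codons, chr19:56389989-56390016, minus strand: ggaaagtggaagTTGgattccgaaggct
Mylk3, 19 codons, chr8:85365284-85365313, minus strand: caggctgaggctCTGcagcaaggctcttac
Dab2ip, 32 codons, chr2:35692019-35692043, plus strand: aacttcttggacCTGgaggctactg
Slc41a3, 10 codons, chr6:90619244-90619273, plus strand: ctgaccagtggaATGgacagaggacaccgg
The frames of Ckmt2, Ndufa8, Acadvl, Ogdh, Uqcr11, Mrpl39, Ldb3 and Nrap overlap the start of the longest frame, and those of Mylk3, Dab2ip and Slc41a3 lie inside it, at the start of another annotated transcript. Acadvl, an enzyme that begins the oxidation of long fatty acids, had 433 and 407 footprints on its frame in cKO libraries, against 300 and 287 in Ctrl libraries (log2 fold change 0.09, edgeR adjusted p = 0.791). Ogdh, a subunit of the 2-oxoglutarate dehydrogenase complex, had 312 and 273 footprints on its frame in cKO libraries, against 229 and 181 in Ctrl libraries (log2 fold change 0.07, edgeR adjusted p = 0.881). These raw counts follow the depth of the libraries, which was highest in cKO 1 and lowest in Ctrl 1, and neither frame passed the test.

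The Ribo-seq libraries held 39.68 and 34.08 M footprints in cKO, against 25.17 and 33.78 M in Ctrl, and the RNA libraries held 16.84 and 15.05 M counts in cKO, against 15.96 and 16.2 M in Ctrl. Mettl1 itself has 1 frame in the table and no secondary frame. Its footprints were 2.20 and 2.19 CPM (counts per 1 M counts of the library, with TMM factors) in cKO, against 6.21 and 6.58 CPM in Ctrl, a log2 fold change of -1.54 (SE 0.20, edgeR adjusted p = 1.5e-04). Mettl1 RNA was 2.48 and 2.52 CPM in cKO, against 4.31 and 3.75 CPM in Ctrl, and did not pass the test (log2 fold change -0.69, edgeR adjusted p = 0.0664). The summed RNA of 8 cardiomyocyte markers was 49249 and 49323 CPM in cKO, against 53556 and 53153 CPM in Ctrl, and 4 of the 8 were lower in cKO. The summed RNA of 5 erythroid markers was 2487 and 1588 CPM in cKO, against 1452 and 1587 CPM in Ctrl, with cKO 1 above the other libraries, and 3 of the 5 were higher in cKO. The 5 endothelial markers summed to 1350 and 1365 CPM in cKO, against 1469 and 1547 CPM in Ctrl, and the 4 smooth muscle markers to 397 and 420 CPM in cKO, against 462 and 489 CPM in Ctrl, without overlap and with 1 marker of each lower in cKO. No marker of fibroblasts, macrophages or skeletal muscle passed the test. Footprints on genes of the mitochondrial genome made up 1.51% and 1.93% in cKO, against 2.67% and 1.92% in Ctrl, with Ctrl 1 highest. No marker of the 7 cell types searched was at 0. The part of these shifts in the results below was not tested, and in whole hearts fewer cells of a type and less RNA per cell cannot be told apart.

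Footprints on secondary frames were few and unevenly spread. The 4354 frames held 1577453 footprints over the 4 libraries, and 2074 of them had none. A further part had under 10, which makes 2584 frames below that number, and 119 frames had at least 1000. A single frame, in Pln, held 34.7% of the footprints, the top 3 held 56.9% and the top 10 held 68.5%. In 470 cases, in 403 genes, the secondary frame had more footprints than the longest frame of its gene. Where both frames had footprints, 682 of 2134 secondary frames were denser per codon than the longest frame, and the median density ratio was 0.312. This ratio was 0.864 for frames inside the longest frame, 0.460 for frames that overlapped its start, 0.149 for frames beyond its end and 0.141 for frames that shared its start. The sources used here do not say how reads that fit more than 1 frame were counted, which touches the frames that overlap.

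Secondary frames took 1.10% and 1.19% of all footprints in cKO, against 1.32% and 1.19% in Ctrl. The groups overlapped, and the difference of -0.108 percentage points had p = 0.667 in an exact two-sided permutation test, in which 2 libraries against 2 cannot go below 0.333. Frames that shared the start of the longest frame took 0.487% and 0.515% in cKO, against 0.655% and 0.580% in Ctrl, with both cKO libraries below both Ctrl libraries (exact p = 0.333). The Pln frame held 75.1% of the footprints of this class. Without it the class took 0.130% and 0.131% in cKO, against 0.147% and 0.144% in Ctrl, so that the difference was -0.0149 in place of -0.116 percentage points, still without overlap (exact p = 0.333), and the difference over all secondary frames was -0.00666. Frames inside the longest frame took 0.0451% and 0.0473% in cKO, against 0.0523% and 0.0489% in Ctrl (exact p = 0.333). Frames over its end took 0.0142% and 0.0144% in cKO, against 0.0172% and 0.0176% in Ctrl (exact p = 0.333). In these 3 classes the groups did not overlap, while in the frames that overlap the start, span the longest frame or lie beyond its end they did. Without the 3 frames with the most footprints the share was 0.501% and 0.514% in cKO, against 0.533% and 0.508% in Ctrl, and the groups overlapped.

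**Figure D2:**
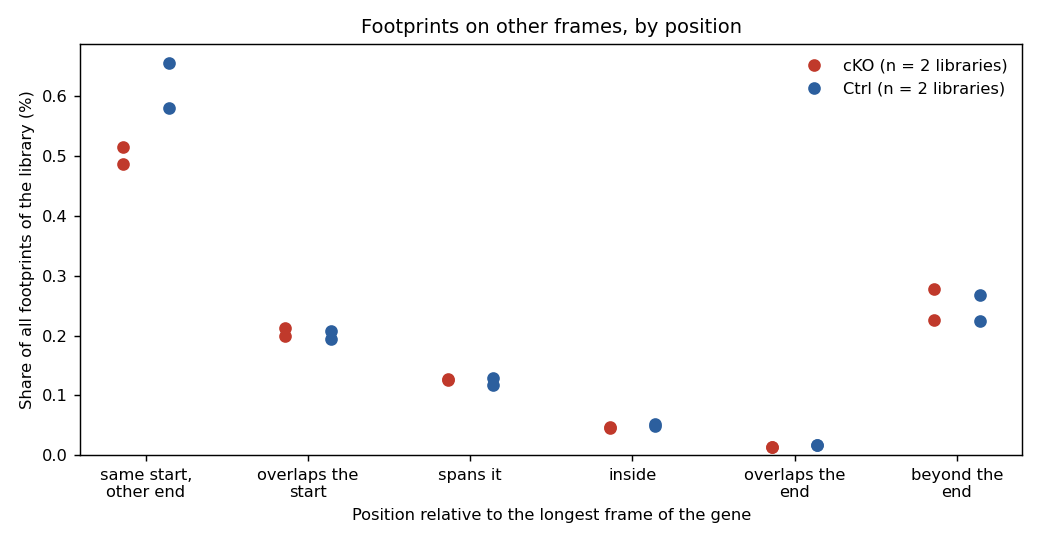
Share of all footprints of a library (y axis, percent) on secondary frames in 6 positions relative to the longest frame (x axis). Points are single libraries, 2 cKO to the left of 2 Ctrl. The cKO points lie below the Ctrl points for frames with the same start, 0.487% and 0.515% against 0.655% and 0.580%, where the Pln frame holds 75.1% of the footprints, and for the much smaller classes inside and over the end.

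The frames with the most footprints mark 3 kinds of case. In the first, nearly all footprints lie on the secondary frame and the longest frame of the table is almost empty. Phospholamban, encoded by Pln, is the small membrane protein that restrains the calcium pump of the sarcoplasmic reticulum. Its secondary frame (chromosome 10, 53337763 to 53344022, across an intron) is longer than the protein itself, held 7302 footprints per codon, and the longest frame, which has the same start, held 23.3 per codon. In Gnas, the gene of the stimulatory G protein alpha subunit, the frame of 351 codons held 452 footprints per codon, against 0.0182 for the longest frame of 771 codons. Gnas is a known case of a locus with several proteins. The genes Gm30189 and Gnasas1 overlap its frame of 351 codons. In Map3k20, a kinase gene, the frame of 454 codons held 39.3 footprints per codon. The longest frame of 802 codons, with which it shares the start, held 0.0661 per codon. The gene Gm52556 overlaps Map3k20. In Rhob, a small GTPase, the frame of 196 codons held 127 footprints per codon, against 0.917 for the longest frame.

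In the second case, short frames of mitochondrial genes collected many footprints. The mt-Nd4 frame of 14 codons lies 460 bases beyond a longest frame of 30 codons that had no footprint, and held 13665 footprints per codon. The longest frame of mt-Co1 in the table has 42 codons, fewer than its protein, which is a core subunit of respiratory complex IV. Mitochondrial ribosomes read codons by their own code, and the sources used here do not say by which code these frames were drawn, and that limit holds for every mitochondrial frame below. In the third case, the frame begins just behind a stop codon. The Selenof frame of 68 codons begins 4 bases beyond the longest frame and held 117 footprints per codon, against 49.0 for the longest frame of 92 codons. Selenof encodes a selenoprotein, in which a UGA codon inside the protein frame is read as selenocysteine.

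Most of these abundant frames did not pass the test between genotypes. The mt-Nd4 frame had 1184 and 1706 CPM in cKO, against 1697 and 1267 CPM in Ctrl, so the groups overlapped (log2 fold change -0.04, edgeR adjusted p = 0.917). The Gnas frame of 351 codons had 1180 and 1160 CPM in cKO, against 1156 and 1268 CPM in Ctrl (log2 fold change -0.05, edgeR adjusted p = 0.750). The frame of 37 codons over the start of Cd36, the fatty acid transporter, had 232 and 241 CPM in cKO, against 286 and 191 CPM in Ctrl, with both cKO libraries between the Ctrl libraries. Its log2 fold change was -0.01 (edgeR adjusted p = 0.981), while the longest Cd36 frame was lower in cKO by its own test, with a log2 fold change of -0.37 (edgeR adjusted p = 0.00843). The difference between the Cd36 frame and its longest frame was 0.39 (SE 0.27, edgeR adjusted p = 0.637). The Selenof frame averaged 63.0 ± 4.24 CPM in cKO and 56.2 ± 4.08 CPM in Ctrl (SD, n = 2 each), without overlap but short of the threshold (log2 fold change 0.17, edgeR adjusted p = 0.301).

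Each frame was compared between genotypes in 1 fit over all frames (edgeR quasi-likelihood test, Benjamini-Hochberg adjustment over all frames, threshold 0.05). Of the 4354 secondary frames, 1163 passed the filter on low counts and 3191 did not. Among those tested, 39 (3.35%) were higher in cKO, against 6.92% of all 17188 frames tested, and 47 (4.04%) were lower in cKO, against 5.88% of all frames. The median log2 fold change was -0.01 for secondary frames and -0.00 for all frames. Every called frame had no overlap between the 2 cKO and the 2 Ctrl libraries, as did 46.2% of the tested secondary frames and 53.3% of all tested frames. By position, 7 of 111 tested frames inside the longest frame were higher and 10 lower. Of 516 frames over the start, 15 were higher and 16 lower, of 343 frames beyond the end 11 were higher and 10 lower, and of 137 frames with a shared start 5 were higher and 8 lower. Of the 48 frames over the end, 3 were lower. The counts rest on single libraries in part: without cKO 1, 18 frames were higher and 17 lower, and without cKO 2, 24 were higher and 34 lower. They were 36 and 30 without Ctrl 1, and 26 and 37 without Ctrl 2.

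**Figure D3:**
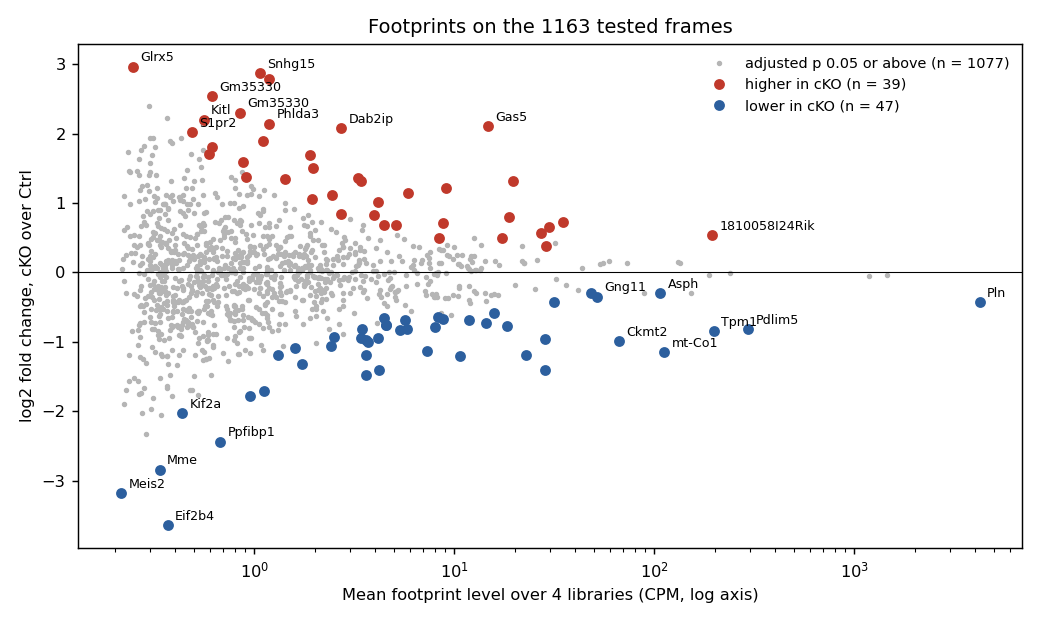
Log2 fold change of footprints, cKO over Ctrl (y axis), against the mean level over 4 libraries (x axis, CPM, log axis) for the 1163 secondary frames tested. Red points (39) passed adjusted p 0.05 as higher in cKO, blue points (47) as lower, and names mark called frames above 50 CPM or changed by more than 2 on the log2 scale (for Dab2ip the more abundant frame). The largest changes lie at low levels, and of the called frames above 50 CPM the mt-Co1 frame changed most, at -1.15.

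The called frames were set beside the longest frame and the RNA of their gene. The 39 higher frames belong to 34 genes. For 31 of them the longest frame was tested too, and it was called higher in 10 and lower in 1, against 7.91% higher and 6.78% lower among all 13286 longest frames tested. RNA was called higher for 21 of the 38 with tested RNA. The 47 lower frames belong to 41 genes, and among the 44 with a tested longest frame it was called lower in 17 and higher in 1. RNA was called lower for 23 of the 46 with tested RNA and higher for 1. In the RNA fit, 8.16% of 14088 genes were higher in cKO and 6.26% lower.

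**Figure D4:**
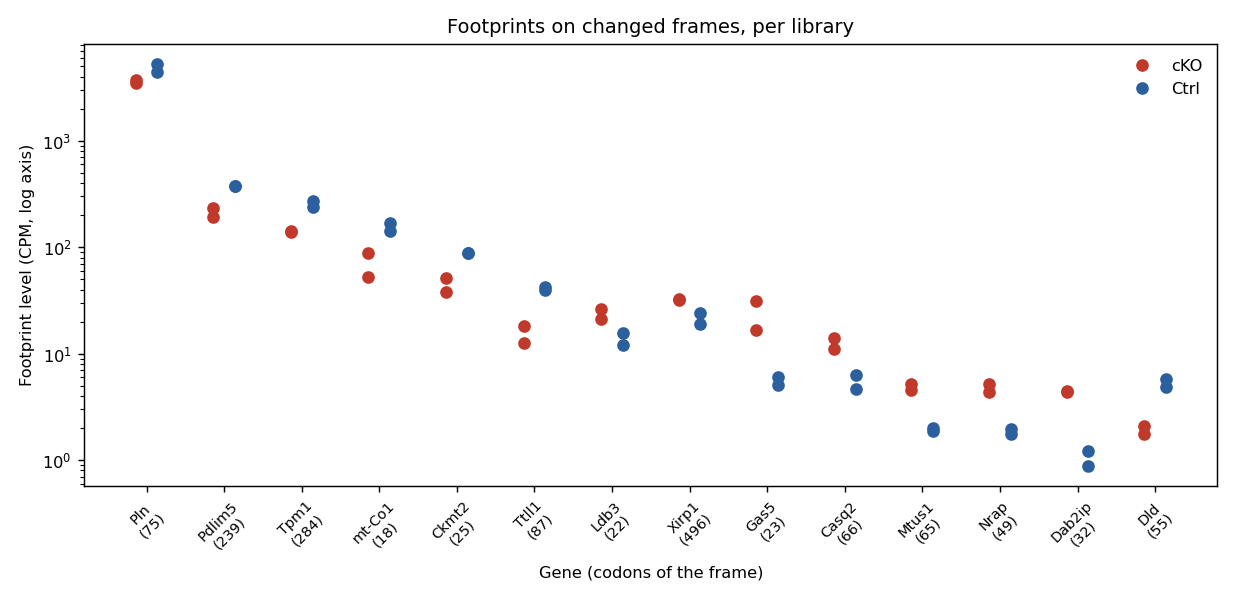
Footprint level (y axis, CPM, log axis) of 14 called secondary frames (x axis, codons in parentheses) in each library, 2 cKO to the left of 2 Ctrl. In each frame both cKO points lie on the same side of both Ctrl points, from Pln at 3495 and 3718 CPM in cKO against 5255 and 4445 CPM in Ctrl down to Dab2ip and Dld.

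In sarcomere and Z-disc genes, which build and anchor the contractile filaments, 16 genes held 21 secondary frames, 15 of which were tested. Of these, 2 rose, in Ldb3 and Xirp1, and 3 fell, among them frames of Tpm1 and Pdlim5, with a median log2 fold change of -0.09 over the 15. With so few frames, this and the list counts below stand beside 6.92% of all tested frames higher and 5.88% lower, and none of them is called particular to its list. Tpm1 encodes the thin filament protein tropomyosin. Its secondary frame of 284 codons (chromosome 9, 67049132 to 67028164) had 139 and 143 CPM in cKO, against 239 and 270 CPM in Ctrl, with the cKO libraries close together and below both Ctrl libraries. The log2 fold change was -0.85 (SE 0.08, edgeR adjusted p = 1.2e-05), against -0.28 (SE 0.04, edgeR adjusted p = 2.1e-04) for Tpm1 RNA. The longest Tpm1 frame has the same number of codons and held only 73 footprints.

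Pdlim5 encodes a Z-disc protein with a PDZ domain and, in its long forms, LIM domains, and it is known for short muscle forms without them. The frame of 239 codons (chromosome 3, 142391808 to 142303328) had 191 and 235 CPM in cKO, against 376 and 376 CPM in Ctrl. The longest frame of 482 codons, which begins at the same ATG, had 54.0 and 55.5 CPM in cKO, against 40.7 and 43.8 CPM in Ctrl. The short frame was thus lower in both cKO libraries and the long frame higher in both. The log2 fold changes were -0.82 (SE 0.09, edgeR adjusted p = 4.7e-05) for the short and 0.37 (SE 0.09, edgeR adjusted p = 0.0139) for the long frame, while Pdlim5 RNA had 0.04 (SE 0.05, edgeR adjusted p = 0.731). Pdlim5 was the only gene with a called lower secondary frame and a called higher longest frame. The direct difference between the 2 frames was -1.20 (SE 0.26), which did not pass in a test of each frame against the longest one (edgeR adjusted p = 0.125). In the test against the whole gene described below (edgeR diffSpliceDGE), the long frame was called higher, by 1.02 on the log2 scale (edgeR adjusted p = 3.7e-06). The short frame was not called there (-0.18, edgeR adjusted p = 0.906). It holds more footprints than the long frame, 37627 against 6583, and so weighs more in the fit of the gene. In related Pdlim7, the frame of 222 codons that shares the start had 2.44 and 2.16 CPM in cKO, against 5.76 and 6.43 CPM in Ctrl. Its log2 fold change was -1.40 (SE 0.21, edgeR adjusted p = 4.0e-04), against -0.02 (SE 0.17, edgeR adjusted p = 0.962) for the longest frame of 457 codons. The microRNA gene Mir6945 overlaps Pdlim7.

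Ldb3 encodes a PDZ and LIM protein of the Z-disc. Its frame of 22 codons, with the CTG shown above, averaged 23.8 ± 3.81 CPM in cKO and 13.8 ± 2.57 CPM in Ctrl (SD, n = 2 each), with both cKO libraries above both Ctrl libraries. The log2 fold change was 0.80 (SE 0.15, edgeR adjusted p = 0.00204), against 0.11 (SE 0.09, edgeR adjusted p = 0.476) for the longest frame and 0.41 (SE 0.05, edgeR adjusted p = 6.8e-05) for Ldb3 RNA. Xirp1 encodes Xin, an actin-binding protein of the intercalated disc. Its frame of 496 codons begins 162 bases beyond the longest frame and had 32.1 and 32.8 CPM in cKO, against 19.2 and 24.2 CPM in Ctrl (log2 fold change 0.57, SE 0.12, edgeR adjusted p = 0.00422). Nrap, a protein of myofibril assembly, was not on the list. Its frame of 49 codons, which begins with the TTG shown above, had 5.21 and 4.32 CPM in cKO, against 1.97 and 1.75 CPM in Ctrl. The log2 fold change was 1.36 (SE 0.23, edgeR adjusted p = 0.00136), against 0.51 (SE 0.07, edgeR adjusted p = 3.4e-04) for the longest Nrap frame and 0.38 for its RNA. Mylk3, the cardiac kinase of myosin light chain, held 3 called frames inside its longest frame, all lower in cKO. The 19-codon Mylk3 frame had 6.12 and 6.79 CPM in cKO, against 17.3 and 12.6 CPM in Ctrl (log2 fold change -1.21, edgeR adjusted p = 2.0e-04). The longest Mylk3 frame was lower too (log2 fold change -0.48, edgeR adjusted p = 0.00143), as was its RNA (log2 fold change -0.49, edgeR adjusted p = 4.9e-05).

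Among genes of calcium cycling, which load and empty the sarcoplasmic reticulum, 7 genes held 26 secondary frames, 18 of which were tested. A frame of Casq2 rose, and 1 frame of Pln and 2 frames of Asph fell, at a median log2 fold change of -0.24. The Pln frame of 75 codons had 3495 and 3718 CPM in cKO, against 5255 and 4445 CPM in Ctrl, so both cKO libraries were lower. The log2 fold change was -0.43 (SE 0.08, edgeR adjusted p = 0.00359), close to the -0.35 (SE 0.05, edgeR adjusted p = 1.6e-04) of Pln RNA. Without cKO 1 it was -0.38 and the call was lost (edgeR adjusted p = 0.0814), and the gene Cep85l overlaps Pln. A second Pln frame of 37 codons, 224 bases beyond the longest frame, had 151 and 123 CPM in cKO, against 154 and 180 CPM in Ctrl (log2 fold change -0.29, edgeR adjusted p = 0.0938). Casq2 encodes calsequestrin, the calcium store protein of the reticulum. A frame of 66 codons that begins 43 bases beyond its longest frame had 14.1 and 11.1 CPM in cKO, against 6.37 and 4.62 CPM in Ctrl, with no overlap. The Casq2 log2 fold change was 1.21 (SE 0.18, edgeR adjusted p = 4.2e-04), against 0.13 (SE 0.07, edgeR adjusted p = 0.271) for the longest frame and 0.27 (SE 0.05, edgeR adjusted p = 0.00167) for the RNA. Asph makes aspartate beta-hydroxylase and, from shorter transcripts, junctin and junctate of the reticulum. The Asph frame of 245 codons had 92.8 and 97.9 CPM in cKO, against 126 and 109 CPM in Ctrl (log2 fold change -0.30, edgeR adjusted p = 0.0398), and its frame of 35 codons had a log2 fold change of -0.69 (edgeR adjusted p = 0.0348). Both Asph calls were lost with library totals and without cKO 1, cKO 2 or Ctrl 1, where the log2 fold changes were -0.27, -0.34 and -0.20 for the long frame and -0.61, -0.77 and -0.43 for the short one.

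Among respiratory complex subunits, 29 genes held 40 secondary frames, and 1 of the 24 tested changed, at a median log2 fold change of -0.22. That frame has 18 codons and overlaps the start of the longest mt-Co1 frame of the table, which is shorter than the protein. The frame of 18 codons had 52.0 and 87.4 CPM in cKO, against 168 and 141 CPM in Ctrl. Its level was lowest in cKO 1 and highest in Ctrl 1, with no overlap between the groups. In the share of mitochondrial genes given above cKO 1 was also lowest and Ctrl 1 highest, but cKO 2 and Ctrl 2 lay together, and the part of that share in this change was not tested. The log2 fold change was -1.15 (SE 0.17, edgeR adjusted p = 3.7e-04), against -0.41 (SE 0.12, edgeR adjusted p = 0.0348) for the longest mt-Co1 frame and -0.24 (SE 0.04, edgeR adjusted p = 2.4e-04) for its RNA. The Ndufa8 frame with the TTG start, in a complex I subunit gene, had 32.6 and 40.7 CPM in cKO, against 21.6 and 32.9 CPM in Ctrl, and the groups overlapped (log2 fold change 0.42, edgeR adjusted p = 0.101). In genes of fuel use, 2 of 12 tested frames fell, in Ckmt2 and Hadhb, at a median log2 fold change of -0.11. Ckmt2 encodes the mitochondrial creatine kinase of muscle. Its CTG frame of 25 codons had 38.2 and 51.5 CPM in cKO, against 89.2 and 88.7 CPM in Ctrl. The Ckmt2 log2 fold change was -0.99 (SE 0.12, edgeR adjusted p = 6.3e-05), against -0.57 (SE 0.07, edgeR adjusted p = 9.3e-05) for the longest frame and -0.43 (SE 0.04, edgeR adjusted p = 1.3e-05) for the RNA, so all of these were lower in cKO. The Hadhb frame of 14 codons, in the beta subunit of the trifunctional protein of fatty acid oxidation, had a log2 fold change of -1.32 (SE 0.37, edgeR adjusted p = 0.0297). This call was lost without cKO 1 (log2 fold change -0.84), without Ctrl 1 (-1.15) and without Ctrl 2 (-1.49). Dld encodes the dehydrogenase shared by the 2-oxoacid dehydrogenase complexes. Its frame of 55 codons, 242 bases beyond the longest frame, had 1.75 and 2.07 CPM in cKO, against 5.80 and 4.83 CPM in Ctrl. The Dld log2 fold change was -1.47 (SE 0.23, edgeR adjusted p = 6.2e-04), against -0.46 (SE 0.08, edgeR adjusted p = 0.00125) for the longest frame.

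The other lists gave little to test. Of 5 tested frames in genes known for an upstream, overlapping, downstream or second frame, 0 passed in edgeR, with 1 at an unadjusted p under 0.05 and 0 called by DESeq2. The single tested frame of the stress response genes, the single one of the cytosolic ribosomal protein genes and the 3 of collagen and matrix genes gave 0 calls in edgeR, 0 at an unadjusted p under 0.05 and 0 in DESeq2. None of the 3 frames of fetal and stress programme genes passed the count filter.

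The largest rises lay in genes outside the lists and mostly at low levels. Gas5 is a host gene of small nucleolar RNAs without a known protein. Its frame of 23 codons had 31.1 and 16.8 CPM in cKO, against 6.09 and 5.07 CPM in Ctrl, with cKO 1 the higher of the cKO libraries. The log2 fold change was 2.11 (SE 0.23, edgeR adjusted p = 3.0e-05), against 0.69 (SE 0.17, edgeR adjusted p = 0.0140) for Gas5 RNA, and LOC115487678 overlaps the gene. Snhg15, another such host gene, had 1.53 and 2.21 CPM on its frame of 19 codons in cKO, against 0.494 and 0.0604 CPM in Ctrl. The Snhg15 log2 fold change was 2.87 (edgeR adjusted p = 0.00428) and was 4.87 without Ctrl 1 and 1.91 without Ctrl 2. LOC115487884 overlaps this gene. Phlda3, a target of p53, rose in the frame, the longest frame and the RNA. Its frame of 24 codons, 1714 bases beyond the longest frame, had a log2 fold change of 2.14 (SE 0.44, edgeR adjusted p = 0.00469), which was 3.22 without Ctrl 2. The longest Phlda3 frame had 2.39 (SE 0.10, edgeR adjusted p = 1.5e-09) and Phlda3 RNA 2.05 (SE 0.09, edgeR adjusted p = 1.8e-09).

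Dab2ip, which encodes a GTPase-activating protein of Ras, held 2 frames that rose while its RNA did not pass the test. The CTG frame of 32 codons had 4.47 and 4.32 CPM in cKO, against 1.23 and 0.875 CPM in Ctrl. A neighbouring frame of 23 codons had 2.34 and 1.79 CPM in cKO, against 0.288 and 0.302 CPM in Ctrl. The log2 fold changes were 2.08 (SE 0.27, edgeR adjusted p = 1.4e-04) and 2.79 (SE 0.41, edgeR adjusted p = 4.0e-04), while Dab2ip RNA had 0.04 (SE 0.06, edgeR adjusted p = 0.767). The longest frame held only 42 footprints, with a log2 fold change of -0.43 (SE 0.67, edgeR adjusted p = 0.759). Kitl, the gene of stem cell factor, held 3 called frames that begin 7020, 7126 and 7359 bases beyond its longest frame, with log2 fold changes of 1.59, 1.90 and 2.20. The Kitl frame of 35 codons had 1.78 and 1.70 CPM in cKO, against 0.699 and 0.272 CPM in Ctrl, and its call was lost without cKO 1 (edgeR adjusted p = 0.0712) or Ctrl 2 (edgeR adjusted p = 0.0887). The calls of the other two were lost without cKO 1, cKO 2 or Ctrl 2, with edgeR adjusted p between 0.0947 and 0.229. Kitl RNA had a log2 fold change of -0.18 (edgeR adjusted p = 0.195). In Hand2, a transcription factor of heart development, a frame of 90 codons that begins 39 bases beyond the longest frame had 3.41 and 2.44 CPM in cKO, against 0.370 and 1.36 CPM in Ctrl. The Hand2 log2 fold change was 1.69 (edgeR adjusted p = 0.0135). It was 1.43 without cKO 1 and 1.10 without Ctrl 1, where the call was lost, and 2.97 without Ctrl 2.

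The largest falls among frames of at least 1 CPM were those of Ank1, Dld, Ttll1 and Pdlim7. Ttll1 encodes a subunit of the enzyme that adds glutamate chains to tubulin. Its frame of 87 codons over the end of the longest frame had 12.7 and 18.3 CPM in cKO, against 42.2 and 39.9 CPM in Ctrl, and the longest frame had 16.9 and 20.7 CPM in cKO, against 33.1 and 33.8 CPM in Ctrl. The Ttll1 log2 fold changes were -1.41 (SE 0.14, edgeR adjusted p = 1.2e-05) for the frame and -0.83 (SE 0.11, edgeR adjusted p = 2.1e-04) for the longest frame. The Ccrl2 frame of 102 codons, in the gene of an atypical chemokine receptor, had 15.1 and 12.5 CPM in cKO, against 35.7 and 27.5 CPM in Ctrl (log2 fold change -1.19, edgeR adjusted p = 4.9e-05), and Ccrl2 RNA fell by 0.97 on the log2 scale (edgeR adjusted p = 2.7e-05). The gene Gm15816 overlaps the Ank1 frame of 15 codons. That frame had 0.617 and 0.426 CPM in cKO, against 1.73 and 1.72 CPM in Ctrl (log2 fold change -1.71, edgeR adjusted p = 0.00975). This call was lost without cKO 2 (log2 fold change -1.48) and without Ctrl 2 (-1.72). The Slc41a3 frame of 10 codons, in a gene of a magnesium transporter and with the ATG shown above, had 3.43 and 5.74 CPM in cKO, against 8.39 and 11.5 CPM in Ctrl. Its log2 fold change was -1.13 (edgeR adjusted p = 0.00362), and the call was lost without cKO 1 (-0.80) and without Ctrl 2 (-0.88).

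The naming rule also gave 5 called frames of other genes. Hectd2os is named for the strand opposite Hectd2. No other gene was found over its frame of 13 codons, and whether Hectd2 reads were counted on it was not tested. The frame had 3.26 and 2.58 CPM in cKO, against 0.987 and 1.06 CPM in Ctrl (log2 fold change 1.51, edgeR adjusted p = 0.00336). The call was lost without cKO 1 (1.33). Gnao1 encodes a G protein alpha subunit, and its secondary frame of 354 codons had a log2 fold change of 1.35 (edgeR adjusted p = 0.0278), lost without cKO 2 or Ctrl 1 (1.04 in both). The gene 4930488L21Rik overlaps Gnao1. Mrpl21 encodes a mitochondrial ribosomal protein, and its frame of 209 codons had -1.19 (edgeR adjusted p = 0.0498). The Mrpl21 call was lost without any single library, with -0.84 without cKO 1, -1.62 without cKO 2, -1.27 without Ctrl 1 and -1.11 without Ctrl 2, and Mir6984 overlaps the gene. The frame of 60 codons beyond Dynll2, a dynein light chain gene, had -1.78 (edgeR adjusted p = 0.0129), lost without cKO 1 (-1.68), cKO 2 (-1.88) or Ctrl 1 (-1.58). The frame of 61 codons beyond Ppfibp1, a liprin gene, had 0.346 and 0.0568 CPM in cKO, against 1.27 and 1.03 CPM in Ctrl (log2 fold change -2.44, edgeR adjusted p = 0.0186). It was -4.24 without cKO 1, and the call was lost without cKO 2 (-1.72), Ctrl 1 (-2.29) or Ctrl 2 (-2.60).

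**Figure D5:**
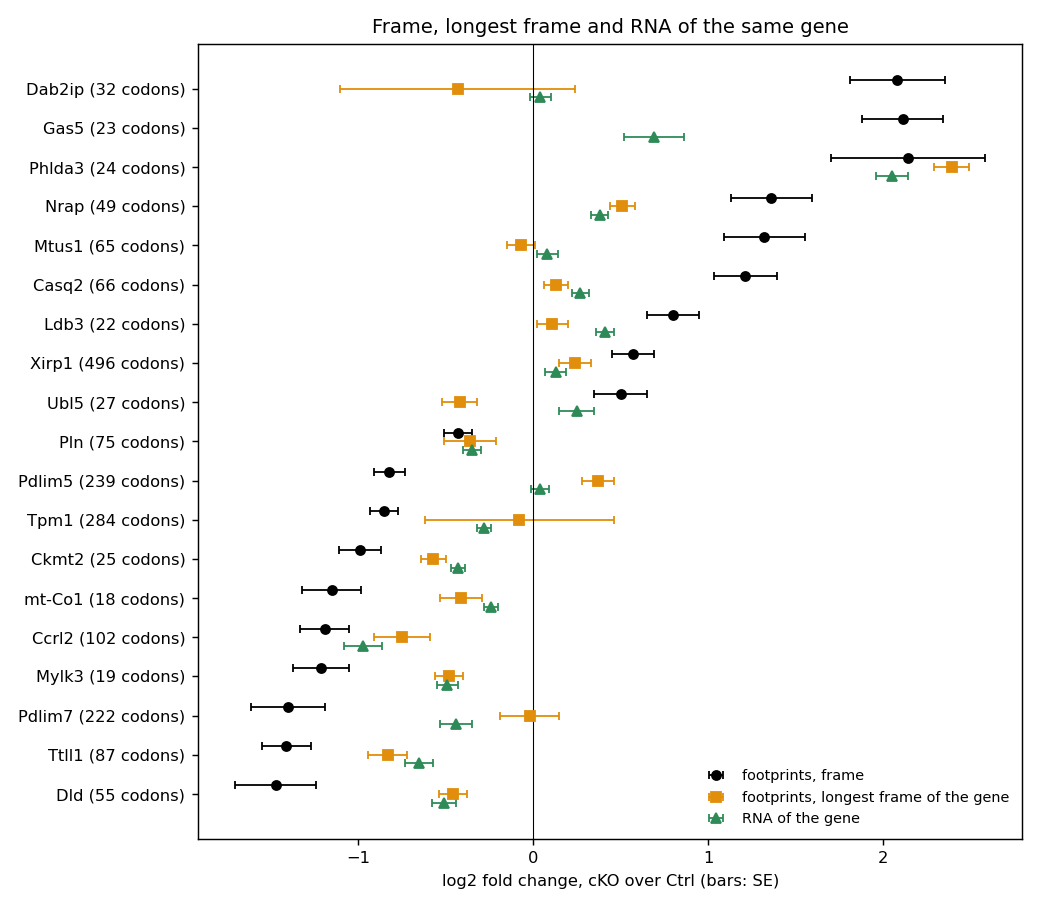
Log2 fold change, cKO over Ctrl (x axis, bars give the SE), of 19 called secondary frames (black circles), the longest frame of the same gene (orange squares) and the RNA of the gene (green triangles). For Pdlim5 the frame lies at -0.82 and the longest frame at 0.37, for Phlda3 all 3 values lie between 2.05 and 2.39, and for Gas5 no longest frame was tested.

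A further test asked whether a frame changed apart from its gene (edgeR diffSpliceDGE). The fit of the gene includes the frame itself, so a frame with most of the footprints of its gene can hardly be called. The Tpm1 frame had -0.00 in this test, with a log2 fold change of -0.85 in footprints against -0.08 for its longest frame. Of 1063 secondary frames tested, 3 were higher (Mtus1, Casq2 and Ubl5), against 0.170% of the 6478 frames tested in all, and 1 was lower (Eif2b4), against 0.0617% of all. Mtus1 encodes a microtubule-associated protein. Its frame of 65 codons inside the longest frame had 5.23 and 4.54 CPM in cKO, against 1.89 and 2.02 CPM in Ctrl, while the longest frame had 125 and 132 CPM in cKO, against 137 and 134 CPM in Ctrl. The Mtus1 frame moved apart from its gene by 1.35 on the log2 scale (edgeR adjusted p = 0.00392), and the Casq2 frame by 1.08 (edgeR adjusted p = 0.00203). Ubl5 is a ubiquitin-like protein of mRNA splicing. Its frame of 27 codons over the start had 9.72 and 9.85 CPM in cKO, against 6.37 and 7.39 CPM in Ctrl, and its longest frame had 92.7 and 117 CPM in cKO, against 137 and 145 CPM in Ctrl. The Ubl5 frame moved apart by 0.86 (edgeR adjusted p = 0.0218). In Eif2b4, a subunit of the exchange factor of initiation factor eIF2, the frame of 56 codons held 44 footprints in all and had 0.0987 and 0 CPM in cKO, against 0.658 and 0.724 CPM in Ctrl (edgeR adjusted p = 0.0115). None of these calls held without every library. Without cKO 1 the adjusted p in edgeR was 0.256 for Mtus1, 0.265 for Casq2, 0.503 for Ubl5 and 0.0570 for Eif2b4. Without Ctrl 2 it was 0.133 for Mtus1, 0.159 for Casq2, 0.251 for Ubl5 and 0.199 for Eif2b4. Without Ctrl 1 it was 0.155 for Mtus1, 0.286 for Ubl5 and 0.155 for Eif2b4, and without cKO 2 it was 0.0528 for Ubl5 and 0.268 for Eif2b4. When each frame was set against the longest frame of its gene alone, with the library as a block, 0 of 1021 secondary frames passed in edgeR (0% of 3613 frames), and 131 had an unadjusted p under 0.05.

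Footprints were last set against the RNA of the gene, in a single model of all 8 libraries that tests whether the genotype effect differs between the assays. Of 1128 secondary frames tested, 10 rose per RNA, against 0.196% of the 16321 frames tested, and 9 fell, against 0.116% of all. Both Dab2ip frames rose per RNA, by 2.06 (edgeR adjusted p = 5.9e-04) and 2.77 (edgeR adjusted p = 9.6e-04) on the log2 scale, and so did the frame of Mtus1 by 1.24 (edgeR adjusted p = 0.00499) and that of Casq2 by 0.96 (edgeR adjusted p = 0.0376). The Nrap frame rose per RNA by 0.99 (edgeR adjusted p = 0.0288), and the 3 Kitl frames by 1.80 to 2.40 (edgeR adjusted p between 0.0191 and the threshold). The Pdlim5 frame of 239 codons had -0.85 per RNA (edgeR adjusted p = 0.00667), the Tpm1 frame -0.57 (edgeR adjusted p = 0.0376) and the Dld frame -0.96 (edgeR adjusted p = 0.0456). Some of these calls depended on the normalization. Those of Dld and of the Kitl frame of 15 codons were lost with relative-log-expression factors and with library totals. The Casq2 call was lost with relative-log-expression factors. The Pln frame had -0.08 (edgeR adjusted p = 0.863) and the Ckmt2 frame -0.56 (edgeR adjusted p = 0.104). With both libraries of a number left out, footprint and RNA, 0 frames rose and 0 fell without cKO 1, 2 and 2 without cKO 2, 5 and 0 without Ctrl 1, and 3 and 1 without Ctrl 2. Without cKO 1 the changes per RNA were 2.01 and 2.53 for the Dab2ip frames (edgeR adjusted p = 0.127 for both) and 1.08 for Mtus1 (edgeR adjusted p = 0.259). They were -0.69 for Pdlim5 (edgeR adjusted p = 0.270) and -0.52 for Tpm1 (edgeR adjusted p = 0.475). For these frames of Dab2ip, Mtus1, Pdlim5 and Tpm1 the calls were lost while the sizes stayed near those with all libraries. This fit leaves 1 cKO library per assay. Sizes moved more in frames with few footprints. Without cKO 1 the change per RNA was -7.35 in place of -3.64 for Eif2b4 (44 footprints in all). For Ppfibp1 (81 footprints in all) it was -4.12 in place of -2.29.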

How the data were processed

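The heart Ribo-seq table holds whole-number footprint counts per frame and the heart RNA-seq table whole-number read counts per gene, both deposited by the authors with no normalization, as read from the values. The submitters' processing notes name the GRCm38 build and, without roles, Bowtie, Bowtie2, HISAT2, STAR, StringTie, featureCounts, cutadapt and DESeq2. How frames were called, the strand setting and the counting of reads shared by frames are not given in the sources used here. H9C2 and tRNA libraries were not used here. Columns were matched to samples by name.

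Frame names were split into gene, first position, last position and codons. The longest frame has the most codons (ties: first in the file), and positions beside it defined the classes. Symbols came from the mouse name table, which left 6 of the secondary frames unnamed, and the chromosome was found for 4155 of them. Start codons were read from RefSeq windows (GRCm38.p6). Strand was read from the order of the positions.

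Counts were fitted with edgeR 4.0.16 (R 4.3.3; glmQLFit and glmQLFTest, TMM, filterByExpr at a minimum count of 10, Benjamini-Hochberg at 0.05) over all frames, cKO against Ctrl, 2 libraries each. diffSpliceDGE tested a frame against its gene, and an interaction over 8 libraries tested footprints per RNA. A quasi-likelihood test of the interaction of frame and genotype, with the library as a block, set a frame against the longest frame alone. That test, and the share of frames with a shared start without the Pln frame, were added after the data were seen. Frames that share a gene share its RNA values and are not replicates. Levels are CPM with TMM factors. The SE is the absolute log2 fold change over the square root of F. The edgeR fits of frames were run on simulated data at their main settings, and the DESeq2 and replicate-block fits were not. Intervals and SEs cover no variation beyond these libraries.

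Alternatives were relative-log-expression factors, library totals, DESeq2 1.42.0, other count filters, a replicate block, a 2-fold threshold, another choice of main frame and leaving out each library. Named frames were the 10 with most footprints, the 10 largest called changes per direction (mean 1 CPM or more, groups not overlapping), the 5 largest per direction apart from the gene and per RNA, the 5 most abundant beyond the longest frame, and up to 4 per gene list, without predicted gene models. Outside this rule, Acadvl, Ogdh, Uqcr11 and Mrpl39, whose starts are shown, were chosen after their values were seen. Not every frame that the rule or a list brings in is reported here. Secondary frames and gene lists (sarcomere, calcium cycling, respiratory subunits, fuel use, stress response, known second frames, ribosomal proteins, matrix, fetal programme, cell type markers) were chosen with earlier results of these data known.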

Additional observations from a re-analysis of the deposited data

How the results depend on the processing

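Among the named frames, no called result reversed its direction under any of the alternatives run (541 values, 410 kept past the threshold and 131 not). Named frames without a call, such as those of Cd36, mt-Nd4 and Gnas, are not among these values. As the results were chosen for passing the test on the same data, a reversal was unlikely. The 39 frames higher in cKO became 67 with at least 1 footprint as the sole filter and 25 with DESeq2, and 18 to 36 when 1 library was left out. The 47 lower frames became 19 with an added 2-fold threshold and 17 to 37 when 1 library was left out. The 3 frames higher apart from their gene became 8, and the 1 lower frame 3, with at least 50 footprints in every library of a group. Set against the longest frame alone, the counts were 0 and 0, in a fit run only with all libraries. In the test against the whole gene, calls were lost when 1 library was left out, as given above. Per RNA, the 10 higher and 9 lower frames became 6 and 5 with relative-log-expression factors, 16 and 16 with DESeq2, 6 and 5 with an added 2-fold threshold, 5 lower with at least 50 footprints, and 0 to 5 and 0 to 2 when 1 library was left out. In each of these the cause of the change was not tested. Some alternatives also leave fewer frames or libraries, and the part of this was not tested either.

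The difference in the share of footprints, -0.108 percentage points, was 0.00316 with the frame of most footprints as the main frame and 0.00647 for frames beyond the longest one, and lay between -0.170 and -0.0463 when 1 library was left out. Libraries of the same number did not deviate together (correlation 0.03 over 12261 frames), so the numbers are not taken to pair them. With a replicate block in the fit, 52 frames were higher and 60 lower in footprints, 11 and 9 apart from their gene, and 10 and 11 per RNA. The difference in share was again -0.108. A block on the replicate number cannot change it, as each number has 1 footprint library of each genotype. Depth left 3191 of the 4354 frames below the count filter, and no statement is made on their change.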
